A study of Homo sapiens with 22 samples.

Results

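The replicative histone genes of 6p22 are the largest human cluster of the genes that supply histones in S phase. They were taken as the protein-coding RefSeq genes H1-1 to H1-5 and the numbered H2AC, H2BC, H3C and H4C genes on chromosome 6 between 25.5 and 28.5 Mb on hg38. This gave 54 genes of 19974 protein-coding genes on chromosomes 1 to 22 and X: 12 for H2A, 15 for H2B, 10 for H3, 12 for H4 and 5 for the linker histone H1. Around them, the binding of the replication factor MTBP, the histone mark H3K4me2 and the zones of early DNA synthesis were described from 3 deposited lists. The cells were DLD-1, an established human colorectal adenocarcinoma line, and every line used had at least 1 MTBP allele fused to mAID, a tag for auxin-induced degradation. CUT&RUN, in which an antibody tethers a nuclease that cuts out the bound DNA, was done against FLAG in MTBP-mAID/MTBP-WT-FLAG cells (3 libraries), MTBP-mAID/MTBP-deltaC-FLAG cells (3) and untagged MTBP-mAID/MTBP-mAID controls (3). The deltaC protein lacks the C terminus. In the MTBP-WT-FLAG line, 2 libraries used an H3K4me2 antibody and 2 used IgG. EdU-seq, which sequences newly made DNA labelled with 10 µM EdU for 3 hr, was done in G1-arrested WT cells, released WT cells and released deltaC cells (3 libraries each), with hydroxyurea and aphidicolin present after release per the series' design text. Whether each line is 1 clone, and whether auxin was given, is not stated in the labels. The lists hold 29848 MTBP peaks, 62388 H3K4me2 peaks and 2473 initiation zones on those chromosomes. They hold no values of single libraries, so no value has an error over replicates, no test was possible, and the depth behind each value is unknown.

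Replicative histone genes are short, lack introns in most cases and give mRNAs that end in a stem-loop in place of a poly(A) tail. Their transcription rises at the start of S phase under NPAT, the cofactor that marks histone locus bodies. H2A and H2B genes often lie head to head and share 1 promoter region. MTBP acts with Treslin in loading CDC45 and GINS onto the replicative helicase, the step that fires an origin. H3K4me2, dimethylated lysine 4 of histone H3, marks active or poised promoters and enhancers. The labelled cell type was checked on H3K4me2 at marker starts. Of 14 colorectal epithelium genes, 11 had a peak (78.6%, against 63.8% of all protein-coding genes), and CDH17, GPA33 and LGALS4 had none. No peak lay at the 2 liver, 2 muscle and 2 endothelial markers, while CD3E and SPI1 of 4 blood genes, SYP of 3 neuronal genes and COL1A1 of 3 fibroblast genes had one.

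Promoters of 8 histone genes are printed to set genes with and without peaks side by side. Each line gives the 100 bases before the start site, 5′ to 3′ on the gene's strand, from RefSeq (GRCh38.p14). Capitals mark 4 motifs. CCAAT was searched on both strands, so it also shows as its reverse complement. The TATA box was searched as TATAAA on the sense strand. The octamer ATTTGCAT and the motif GGTCCG were searched on both strands.
H4C4, chr6:26189113-26189212, minus strand, with MTBP and H3K4me2: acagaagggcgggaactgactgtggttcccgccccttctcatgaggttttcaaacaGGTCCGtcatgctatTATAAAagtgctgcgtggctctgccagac
H4C8, chr6:26285535-26285634, minus strand, with MTBP and H3K4me2: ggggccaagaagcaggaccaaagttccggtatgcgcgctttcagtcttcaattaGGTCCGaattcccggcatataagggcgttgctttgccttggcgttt
H4C11, chr6:27823992-27824091, plus strand, with H3K4me2 and no MTBP: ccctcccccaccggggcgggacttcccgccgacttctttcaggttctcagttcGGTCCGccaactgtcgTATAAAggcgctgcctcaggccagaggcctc
H4C12, chr6:27831561-27831660, minus strand, with H3K4me2 and no MTBP: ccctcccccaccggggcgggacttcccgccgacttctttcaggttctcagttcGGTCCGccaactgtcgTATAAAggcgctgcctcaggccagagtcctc
H2BC11, chr6:27132796-27132895, minus strand, with MTBP and H3K4me2: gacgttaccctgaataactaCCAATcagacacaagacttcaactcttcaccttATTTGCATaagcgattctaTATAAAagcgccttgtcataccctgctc
H2BC8, chr6:26216689-26216788, minus strand, with neither: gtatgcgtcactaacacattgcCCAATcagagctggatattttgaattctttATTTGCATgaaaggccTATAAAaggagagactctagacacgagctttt
H1-4, chr6:26156229-26156328, plus strand, with MTBP and H3K4me2: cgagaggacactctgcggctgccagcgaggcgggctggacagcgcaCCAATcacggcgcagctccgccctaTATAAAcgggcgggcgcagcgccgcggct
H1-1, chr6:26017788-26017887, minus strand, with neither: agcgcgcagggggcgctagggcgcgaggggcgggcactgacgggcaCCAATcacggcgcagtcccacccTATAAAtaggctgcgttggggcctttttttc

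A promoter entry was found for 49 of the 54 histone genes, and 5 had none (H4C1, H4C3, H2AC12, H3C11 and H3C12). In the window from 250 bases before to 50 after the start, TATAAA on the sense strand was found in 28 of 49 histone genes (57.1%), against 8.65% of 15813 protein-coding promoters. The octamer ATTTGCAT, the letters read by POU-domain factors such as OCT1, was found on either strand in 22 of 49 (44.9%), against 2.22%. It stood in 9 of 11 H2A and 12 of 15 H2B promoters, 1 of 8 H3 promoters (H3C4, which shares a start with H2AC7) and no H1 or H4 promoter. Divergent H2A and H2B genes share part of the window, so 1 octamer can count for both. CCAAT or ATTGG was found in 42 of 49 (85.7%), against 42.1%, and H4 was the family with the lowest share, 3 of 10. The H1 box AAACACA, on either strand, was found in 5 of 5 H1 promoters and in no core histone promoter (10.2% of all 49, against 5.84%). GGTCCG, a motif chosen after these promoters had been read, was found on either strand in 9 of 10 H4 promoters and in H3C7 (20.4% of 49, against 18.0%).

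Each of the 5 motifs occurred in histone promoters with and without MTBP, in shares whose differences were not tested. TATAAA was found in 13 of 22 promoters whose gene had an MTBP peak and in 15 of 27 without. ATTTGCAT was found in 7 of 22 with MTBP (31.8%) and 15 of 27 without (55.6%), and this difference was not split by family. The octamer stood mostly in H2A (9 of 11) and H2B (12 of 15) promoters. MTBP was at 4 of 12 H2A and 6 of 15 H2B genes, the 2 lowest shares of the families. The 7 include H3C4, which shares a start with H2AC7, a gene counted as without MTBP. CCAAT was found in 18 of 22 and 24 of 27, AAACACA in 3 of 22 and 2 of 27, and GGTCCG in 5 of 22 and 5 of 27. H2BC11, which had MTBP, and H2BC8, which had neither peak, both carry CCAAT, the octamer and TATAAA in this order in the printed stretches. H1-4 and H1-1 differ in the same way, and both carry CCAAT and TATAAA.

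The first question was how many histone genes had MTBP or H3K4me2 at the start. A gene was counted where any part of a peak lay within 1 kb of a start site. An MTBP peak lay at 26 of the 54 histone genes (48.1%), and 42.7% of all protein-coding genes had one. An H3K4me2 peak lay at 43 (79.6%), against 63.8% of all protein-coding genes. Both shares were above the background with all peaks and below it with only peaks of at least the median score. All 26 genes with MTBP also had H3K4me2, which is the background: 99.9% of all protein-coding genes with MTBP had it. Of the 43 genes with H3K4me2, 26 had MTBP (60.5%), against 66.9% of all protein-coding genes with H3K4me2 at a start, so the share with MTBP among marked histone genes was near the background. The 17 others had H3K4me2 without MTBP, and 11 histone genes had neither. MTBP peaks covered the start site itself of 21 histone genes (38.9%, against 37.9% of all protein-coding genes). The 5 others had the peak beside the start: 51 bp away at H3C1, 188 bp at H3C2, 676 bp at H2BC9, 769 bp at H2BC17 and 875 bp at H4C5. The whole gene was covered at 17, a count with no value over all protein-coding genes beside it, and these genes are short. H3K4me2 covered the start of 38 histone genes (70.4%, against 59.8%). Within 5 kb of the start, 39 histone genes had MTBP (72.2%, against 49.5%) and 46 had H3K4me2 (85.2%, against 70.6%). The distinct MTBP peaks at histone genes rose only from 19 to 22 with this window. Most genes it added for MTBP thus lay near a peak already counted at another histone gene. Within 1 kb of either gene end the counts were again 26 and 43, against 42.8% and 64.3%.

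The median score of the peaks at histone genes was below that of the list. When peaks scoring under the median of their own list were dropped, 7 histone genes kept MTBP (13%), against 24.3% of all protein-coding genes, and 23 kept H3K4me2 (42.6%), against 56.7%. This filter thus turned both comparisons with the background. The 7 were H3C1, H4C1, H1-2, H4C4, H3C4, H1-3 and H4C8, and they lie in 1 stretch of the cluster, from H3C1 to H4C8. The 19 distinct MTBP peaks at histone genes had authors' scores of 62 to 300 (median 131), where the median of the whole list was 190. Their WT signals were 142 to 779.8 (median 355), against a median of 371 in the list. They were wide, with a median of 1512 bp (795 to 3628 bp) against 938 bp in the list. Of the 19, 7 reached the starts of 2 histone genes each. For the 22 histone genes with MTBP and a known strand, the authors' summit lay at a median of 236 bp downstream of the start. The range was from 1459 bp upstream to 2057 bp downstream, and the summit was downstream in 17. A peak shared by 2 genes enters for each of them. The offsets have no value over all protein-coding genes beside them, so they are not read as particular to histone genes.

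Families and subclusters had different counts, which were not tested and are to be read against the 42.7% and 63.8% of all protein-coding genes. MTBP was at 7 of 10 H3 genes, 3 of 5 H1 genes, 6 of 12 H4 genes, 6 of 15 H2B genes and 4 of 12 H2A genes. H3K4me2 was at 8 of 10 H3, 4 of 5 H1, 10 of 12 H4, 11 of 15 H2B and 10 of 12 H2A genes. A gap of over 250 kb between neighbouring histone genes split the cluster into 4 subclusters: the H2AC1 and H2BC1 pair, 31 genes from H1-1 to H4C8, 5 genes from H2BC11 to H2AC12, and 16 genes from H2BC13 to H2BC17. The gaps between them were 289.7, 847 and 659.9 kb. MTBP was at 0 of 2, 17 of 31, 4 of 5 and 5 of 16 genes in this order, and H3K4me2 at 0 of 2, 22 of 31, 5 of 5 and 16 of 16. The last subcluster, where every gene had H3K4me2, thus had MTBP at 5 of 16 (31.2%). The H1-1 to H4C8 subcluster had it at 17 of its 22 genes with H3K4me2 (77.3%). These 2 shares are to be read against the 66.9% with MTBP among all protein-coding genes with H3K4me2 at a start. Genes that share a peak are counted separately. When H2AC1 and H2BC1 were left out, MTBP was at 26 and H3K4me2 at 43 of 52 genes. Both shares stayed above those of all protein-coding genes.

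**Figure D1:**
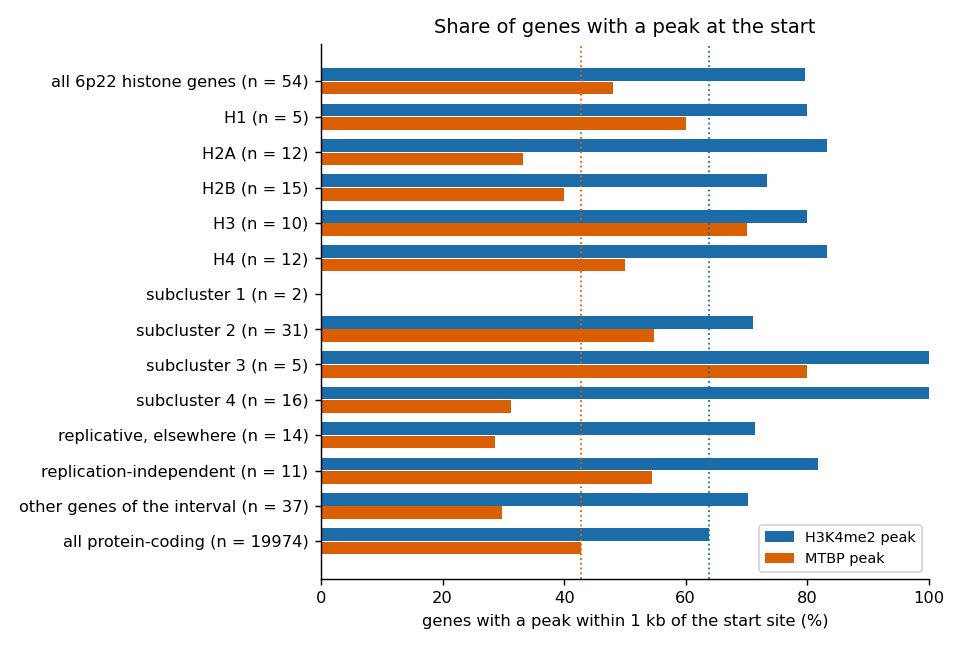
Share of genes (%) with an MTBP peak (orange) or an H3K4me2 peak (blue) within 1 kb of the start site, for all 54 histone genes of 6p22, their families and subclusters, 3 other gene sets and all protein-coding genes. Dotted lines mark the shares of all protein-coding genes, 42.7% for MTBP and 63.8% for H3K4me2; subcluster 1 has no peak, and subcluster 4 has H3K4me2 at 16 of 16 genes and MTBP at 5.

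Linker histones bind nucleosomes at the entry and exit of DNA, and 3 of their 5 genes had MTBP. The peak at H1-2 (chr6:26054730-26057260) had a score of 222, with an authors' signal of 779.8 in WT and 415 in deltaC. The peak over H1-4 (chr6:26156176-26159803) ran on to H2BC5, and had the lowest score in the interval, 62, at the largest width, 3628 bp, with 658 in WT and 543 in deltaC. The peak at H1-3 (chr6:26233874-26235014) had a score of 201, with 282 in WT and 142 in deltaC. Each of these peaks covered the whole H1 gene. H1-5 had H3K4me2 (fold 20.8) and no MTBP peak closer than 22556 bp. H1-1 had neither, and its nearest MTBP peak was 2715 bp away, at H3C1.

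H4 genes encode the core histone that pairs with H3, and 6 of 12 had MTBP. The highest score at a histone gene, 300, was at H4C8 (chr6:26285098-26286043), with 395 in WT and 186 in deltaC. A tRNA gene, TRX-CAT1-2, lies 483 bp from this peak. H4C4 (chr6:26188131-26189414) had a score of 289, with 377 in WT and 218 in deltaC. The printed H4C4 and H4C8 promoters share GGTCCG with those of H4C11 and H4C12, which had no MTBP peak. H4C1 shared a peak with H3C1 (chr6:26020502-26022370, score 277, 623 in WT and 334 in deltaC). H4C2 (chr6:26025559-26027603) had a score of 150, with 558 in WT and 306 in deltaC. H4C3 (chr6:26102872-26104749) had a score of 112, with 569 in WT and 225 in deltaC. At H4C5 the peak (chr6:26205485-26206501, score 121) lay past the end of the gene, with 244 in WT and 136 in deltaC. H4C9, H4C11, H4C12 and H4C13 had H3K4me2 alone, and H4C6 and H4C7 had neither.

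H3 genes encode the histone whose tail carries H3K4me2, and 7 of 10 had MTBP. H3C4 (chr6:26195308-26197366) had a score of 201, with 449 in WT and 206 in deltaC. H3C6 (chr6:26223476-26224410) had a score of 160, with 237 in WT and 107 in deltaC. H3C12 (chr6:27890144-27891356) also had 160, with 355 in WT and 229.7 in deltaC. These peaks had more signal in WT, as did the one at H3C10 (chr6:27809925-27810719, score 121), with 208 in WT and 52.8 in deltaC. The peak at H3C7 (chr6:26249815-26250938, score 78) reached within 1 kb of H2BC9 and differed from these, with 142 in WT and 198 in deltaC. The peak near H3C2 lay over H2AC4 (chr6:26032287-26033798, score 100), with 249 in WT and 244 in deltaC, and is named for deltaC in the list. H3C11 had H3K4me2 alone, and H3C3 and H3C8 had neither.

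H2A and H2B form the dimers on the outside of the nucleosome core, and 10 of their 27 genes had MTBP. The peak over H2BC11 and H2AC11 (chr6:27131176-27134494) had a score of 121 and a width of 3319 bp, with 728 in WT and 439 in deltaC. The peak over the start of H2BC12 and over H2AC12 (chr6:27146839-27147675) had a score of 131, with 231 in WT and 48.6 in deltaC. The peak over H2AC15 and H2BC15 (chr6:27837712-27839290) had a score of 95, with 329 in WT and 150.2 in deltaC. Each of these 3 peaks served an H2A and an H2B gene. The peak beside H2BC17 (chr6:27894194-27895834) had a score of 78, with 333 in WT and 177 in deltaC. Of the H2A and H2B genes, 11 had H3K4me2 and no MTBP: H2BC4, H2AC6, H2BC6, H2AC7, H2BC7, H2BC13, H2AC13, H2AC14, H2BC14, H2AC16 and H2AC17. H2AC1, H2BC1, H2BC3, H2BC8, H2AC8 and H2BC10 had neither.

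Divergent H2A and H2B genes of known strand with starts within 1 kb of each other formed 9 pairs, with 194 to 248 bp between the starts. H2AC12 had no promoter entry and so no strand here. It was therefore not paired with its neighbour H2BC12, although 1 MTBP peak reached both genes, and both had H3K4me2. An H3K4me2 peak lay at 7 pairs and reached the stretch between the starts in 6. MTBP lay at 3 pairs, H2BC11/H2AC11, H2AC15/H2BC15 and H2AC17/H2BC17, and reached between the starts in the first 2. The pairs H2BC4/H2AC6, H2AC7/H2BC7, H2BC13/H2AC13 and H2AC14/H2BC14 had H3K4me2 alone, and H2AC1/H2BC1 and H2BC8/H2AC8 had neither. The bidirectional layout was thus present with both peaks, with 1 and with none. The pair counts have no value over all divergent gene pairs beside them, so they are not read as particular to histone genes.

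The promoters of H4C11 and H4C12 are near-identical, and agree at 295 of 300 bases (98.3%) when set base against base with no gaps. H2AC13 and H2AC14 agree at 252 of 300 (84.0%), and the other 1173 pairs of histone promoters with different starts agree at under 70%. None of these 4 genes had MTBP, and each had H3K4me2. At H4C11 the H3K4me2 peaks stopped 126 bp before the start and began again 307 bp after it, with folds of 5.31 and 11.9. At H4C12 the peak (fold 12.8) began 252 bp downstream of the start. So the start itself was not covered in either gene of the most alike pair. The H3K4me2 peak also missed the starts of H2AC14 by 263 bp, H2BC14 by 508 bp and H4C13 by 73 bp, and covered the start in the other 38 of the 43 marked genes. Outside 6p22, H4C14 and H4C15 on chromosome 1 agree at 300 of 300 promoter bases, and neither had a peak of either kind. Whether reads with several positions were kept is not given in the sources used here, and its part in these values was not tested.

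H3K4me2 at the histone genes was compared between genes with and without MTBP. For each gene the peak with the highest authors' fold over background within 1 kb was taken. The 26 genes with MTBP lay at 17 such peaks, with a median fold over the peaks of 18.3 (8.35 to 25.7) and a median width of 3323 bp. The 17 genes without MTBP lay at 11 peaks, with a median fold of 12.7 (8.35 to 23.4) and a median width of 1705 bp. The ranges overlapped, and some peaks were shared: the peak of fold 8.35 and 7592 bp spans H3C4, which had MTBP, and H2AC7 and H2BC7, which had none. By family, the ranges overlapped in H2A and H2B. In H1 and H3 the 1 gene without MTBP (folds 20.8 and 9.14) lay within the range of those with it. Only for H4 did the ranges not overlap, with folds of 14.8 to 25.7 at the 6 genes with MTBP and 9.14 to 12.8 at the 4 without. The 4 include the near-identical H4C11 and H4C12, and the difference was not tested. The whole list was split by overlap of the peak with MTBP and not by gene. There, H3K4me2 peaks with MTBP had a median fold of 23 and those without had 9.35, the same direction. The 2 splits are not alike: the peak of fold 23.4 at H2BC4 and H2AC6, counted above as without MTBP, does overlap an MTBP peak.

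**Figure D2:**
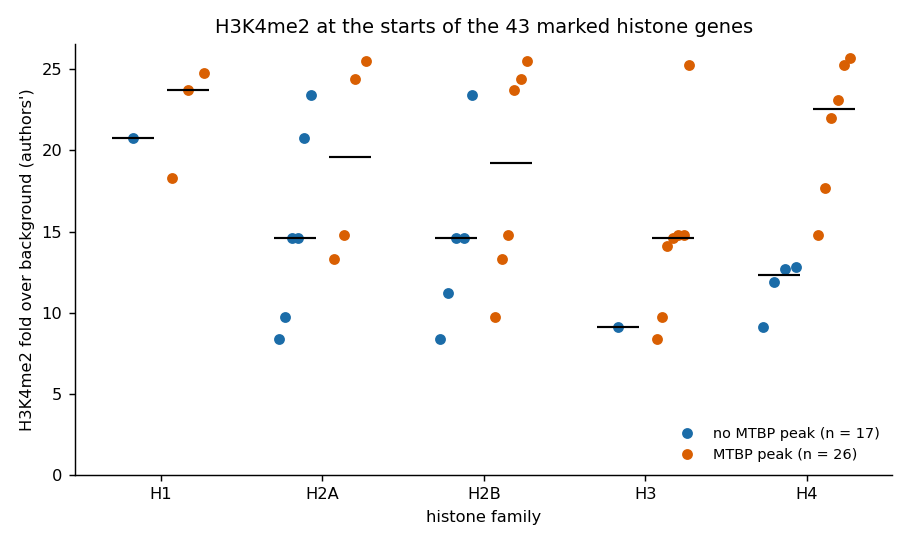
H3K4me2 fold over background (authors' value of the highest peak within 1 kb of the start) for the 43 histone genes with such a peak, by family, for genes with (orange) and without (blue) an MTBP peak. Each point is 1 gene, genes that share a peak have the same value, and bars are medians. The H4 genes with MTBP sit at 14.8 to 25.7 and those without at 9.14 to 12.8, while in the other families the values overlap.

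The next question was how MTBP and H3K4me2 lay along the whole 3-Mb interval. It held 70 MTBP peaks with scores of 62 to 485 (median 160), and 145 H3K4me2 peaks with folds of 3.74 to 44.1 (median 14.6). All 70 MTBP peaks overlapped H3K4me2 (98.9% of the whole list did), and 66 of the 145 H3K4me2 peaks overlapped MTBP (45.5%, against 43.6%). By the authors' classes 37 MTBP peaks were at promoters, 19 at enhancers or super-enhancers and 14 elsewhere. Of the 70, 19 were at a histone gene start, 11 at the start of another protein-coding gene, 21 at none of these but within 1 kb of a tRNA gene, and 19 at none of the 3. By score the highest peaks were not at histone genes: scores above 300 occurred at 5 peaks, none at a histone gene, with 485 near PRSS16 and 421 at ZSCAN31 as the highest. By WT signal the order differed, and 5 of the 10 highest peaks were at histone genes. The H1-2 peak, at 779.8, came after ZSCAN31 and just above the peak near PRSS16, at 778.

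**Figure D3:**
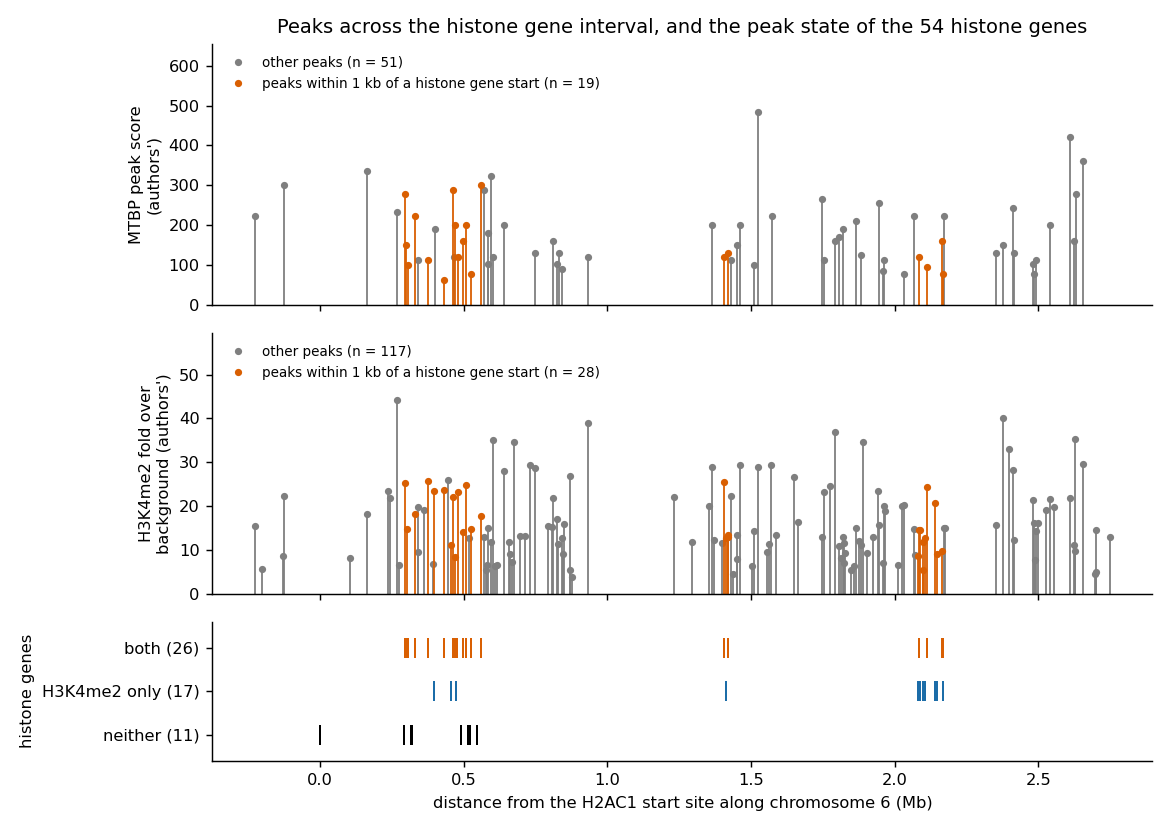
Authors' score of the 70 MTBP peaks (top), authors' fold of the 145 H3K4me2 peaks (middle) and the peak state of the 54 histone genes (bottom), against distance from the H2AC1 start site in Mb. Orange peaks lie within 1 kb of a histone gene start (19 MTBP and 28 H3K4me2 peaks); the highest MTBP scores and H3K4me2 folds belong to grey peaks, and the 11 genes with neither peak lie left of the last 2 subclusters.

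In order along the chromosome, 2 MTBP peaks came before H2AC1, both in introns of CARMIL1, with scores of 222 (from 25499545) and 300 (from 25601881). Between H2BC1 and H1-1 lay a peak of score 336 in a MaLR repeat 15596 bp from SLC17A3 (from 25889839) and a peak of score 233 in a CpG island (from 25992006). The latter had the strongest H3K4me2 of the interval, with a fold of 44.1. The stretch from H1-1 to H4C8 held 16 MTBP peaks in 269 kb, of which 13 were at histone genes. The other 3 had scores of 112 (from 26067336, in an ERV1 repeat), 190 (from 26125891, 1719 bp from the H2AC6 start) and 121 (from 26193216, 3336 bp from H3C4). The peak near H2AC6 was classed as an enhancer and lay inside the H3K4me2 peak of fold 23.4 that covers the H2BC4 and H2AC6 starts.

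From H4C8 to H2BC11, 13 MTBP peaks followed in 847 kb, 8 of them within 1 kb of a tRNA gene. The first 5 lay in the tRNA cluster next to H4C8, from 26296046 (score 289), 26309539 (180), 26311376 (103), 26322016 (324) and 26327675 (121). Peaks at protein-coding starts were at BTN3A2 (from 26364297, score 201), HMGN4 (from 26537518, 160) and ZNF322 (from 26659266, 121). BTN3A2 encodes a butyrophilin, a family of immune surface proteins, and HMGN4 a nucleosome-binding protein. A peak of score 131 lay in the BTN2A1 region (from 26473934). Peaks from 26550408 (103), 26556303 (131), 26568911 (91) and 27091627 (201) completed this stretch, the last 3 over the tRNA genes TRK-CTT2-4, TRY-GTA1-1 and TRP-CGG2-1.

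The stretch from H2BC11 to H2AC12 held the 2 MTBP peaks described above. The 659.9 kb from there to H2BC13 held 18 peaks, none at a histone gene. They began at 27157436 (score 112), 27177472 (150), 27188260 (201), 27236675 (100) and 27250497 (485), the last 2796 bp from PRSS16, a thymus serine protease gene. The next lay from 27298023 (222), at the start of the zinc finger gene ZNF184 from 27472221 (266), and from 27478997 (112), 27519052 (160) and 27532363 (170). The remaining 8 began at 27547478 (190), 27591977 (211), 27609115 (126), 27671495 (255), 27684281 (86), 27687335 (112), 27757344 (78) and 27791918 (222). Of the 18 peaks, those from 27188260, 27250497, 27472221, 27609115 and 27757344 were the 5 with no tRNA gene within 1 kb.

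The 86.4-kb stretch from H2BC13 to H2BC17 held 3 MTBP peaks, each at a histone gene, and the peak beside H2BC17 lay just past its end. After that peak came 13 more, none at a histone gene, in a stretch rich in genes of the SCAN and zinc finger families. The first lay 4187 bp past the H2BC17 start (from 27897612, score 222). Peaks at gene starts were at ZNF165 (from 28079999, 131), ZKSCAN8 (from 28141520, 131), ZSCAN26 (from 28266861, 201), ZSCAN31 (from 28335295, 421, and from 28355829, 277), ZKSCAN3 (from 28349685, 160) and ZSCAN12 (from 28383122, 360). The other 5 began at 28104547 (150), 28136668 (244), 28207061 (103), 28212438 (78) and 28218692 (112). No MTBP peak followed in the last stretch of the interval.

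H3K4me2 peaks were counted over the same stretches. There were 4 before H2AC1 (folds 5.61 to 22.4), none at H2AC1 and H2BC1, 6 from there to H1-1 (6.63 to 44.1) and 20 from H1-1 to H4C8 (6.8 to 25.9). Then came 35 to H2BC11 (3.74 to 38.9), 4 from H2BC11 to H2AC12 (12.7 to 25.5), 42 to H2BC13 (4.53 to 37.0), 10 from H2BC13 to H2BC17 (5.31 to 24.4) and 24 after it (4.59 to 40.1). Over the whole list 43.6% of H3K4me2 peaks overlapped MTBP. In the stretches with peaks, overlap was found for 2 of 4, 2 of 6, 14 of 20 and 12 of 35, in order up to H2BC11. From H2BC11 on it was found for 2 of 4, 18 of 42, 3 of 10 and 13 of 24. The differences between stretches were not tested. Folds above 30 occurred at 9 peaks, none of them at a histone gene, and 3 of these lacked MTBP: over a tRNA gene (from 27616614, 34.7), at BTN3A1 (34.6) and at ZSCAN16 (33.0).

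The tRNA genes were described since 104 of the 443 in the RefSeq table lie in this interval. They are transcribed by RNA polymerase III. An MTBP peak lay within 1 kb of 31 of the 104 (29.8%), against 38.6% of all tRNA genes, and an H3K4me2 peak within 1 kb of 66 (63.5%), against 61.6%. The interval's tRNA genes thus had H3K4me2 at about the background share. Among the other 37 protein-coding genes that overlap the interval, 11 had MTBP (29.7%, against 42.7% of all protein-coding genes) and 26 had H3K4me2 (70.3%, against 63.8%). CARMIL1, counted among the 11, has its start and its peak left of the interval.

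The deltaC signal was below the WT signal at most MTBP peaks. How the authors scaled the signals is not stated, so the ratio of deltaC to WT is read against the whole list. Over the 70 peaks the ratio had a median of 0.55, from 0.21 to 1.68, against a median of 0.52 over the whole list and 0.56 over chromosome 6 outside the interval. It was below 1 at 64 peaks (91.4%, against 95.5% of the list) and below 0.5 at 25 (35.7%, against 45.1%). At the 19 peaks of histone genes the median was 0.53, from 0.21 to 1.39, with 18 below 1 and 7 below 0.5. The other 51 peaks had a median of 0.59.

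Peaks at single histone genes differed in their ratios. The lowest were 0.21 at H2BC12 and H2AC12 and 0.25 at H3C10, and 0.39 at H4C3 followed. H2BC11 and H2AC11, the neighbours of H2BC12, had 0.60. The highest were 1.39 at H3C7 and H2BC9, 0.98 at H2AC4 and H3C2, and 0.83 at H1-4 and H2BC5. The 13 other peaks at histone genes lay between 0.45 and 0.65. Off the histone genes, a ratio above 1 occurred at 5 peaks: 1.29 near H4C8 (from 26296046), 1.68 at TRY-GTA1-1 (from 26568911), 1.11 from 27236675, 1.26 from 27609115 and 1.12 at ZSCAN31. Of the 70 peaks, 4 are named for deltaC in the list. The WT signals of the 6 peaks above 1 were 76.2 to 282, and the highest in the interval was 1040 at ZSCAN31.

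**Figure D4:**
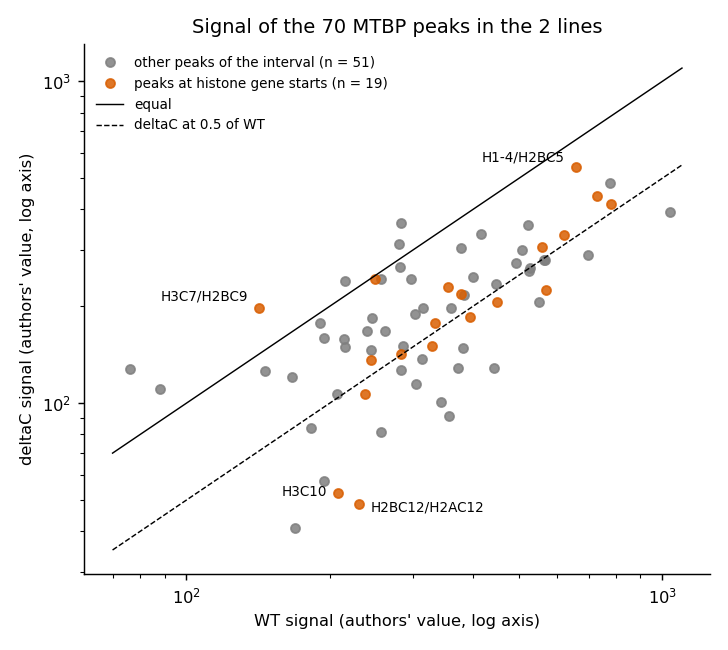
Authors' deltaC signal against WT signal on log axes for the 70 MTBP peaks of the interval, with peaks at histone gene starts in orange (n = 19) and others in grey (n = 51). The solid line marks equal signals and the dashed line a ratio of 0.5; 18 of the 19 histone peaks lie below the solid line and the H3C7/H2BC9 peak above it, at 1.39.

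The last question was where the nearest zones of early initiation lay. None of the 54 histone genes had its start in a zone, against 20.9% of all protein-coding genes, and the interval held no zone. On the left the nearest zone (chr6:17698332-17731229, 32.9 kb, authors' average score 496) lay 7.99 Mb from H2AC1 and holds the start of NUP153, a nuclear pore gene. On the right the nearest zone (chr6:28923189-28933588, 10.4 kb, score 95.1) lay 1.03 Mb from the H2BC17 end of the cluster and holds the start of TRIM27. Both scored below the zone median of 628. These zones held 2 and 1 MTBP peaks. The distances from each subcluster to the right zone were 3.2 Mb for H2AC1 and H2BC1, 2.64 Mb for H1-1 to H4C8, 1.78 Mb for H2BC11 to H2AC12 and 1.03 Mb for H2BC13 to H2BC17. The nearest zone on the right with at least the median score (chr6:30069130-30186823, score 2379) lay 2.18 Mb away, and there was none on the left.

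The zone-free span between NUP153 and TRIM27 ran from 17731230 to 28923188, 11.2 Mb, the 48th longest of 2450 spans without a zone. It held 160 MTBP peaks (14.3 per Mb), the highest density of the 139 zone-free spans of at least 5 Mb, whose median was 5.75 per Mb. Within it the density was 23.3 MTBP peaks per Mb in the histone interval and 11 in the rest. For H3K4me2 the densities were 48.3 and 22.8 per Mb. The chromosomes were also cut into 999 windows of 3 Mb. The 471 windows without a zone held a median of 10 MTBP peaks and at most 58, so none reached the interval's 70, while 63 of the 528 windows with a zone did. Moving the windows in steps of 250 kb and leaving out those that touch the interval gave 5536 zone-free windows with at most 62 MTBP peaks and at most 110 H3K4me2 peaks. Per protein-coding gene the order was the opposite, since 91 of the span's 121 genes overlap the interval: it held 0.77 MTBP and 1.59 H3K4me2 peaks per gene, and the rest of the span 3.00 and 6.23. MTBP peaks in 250-kb bins were most numerous at 0.38 Mb right of H2AC1, in the H1-1 to H4C8 stretch, with 14, and a bin left of the interval held 13.

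**Figure D5:**
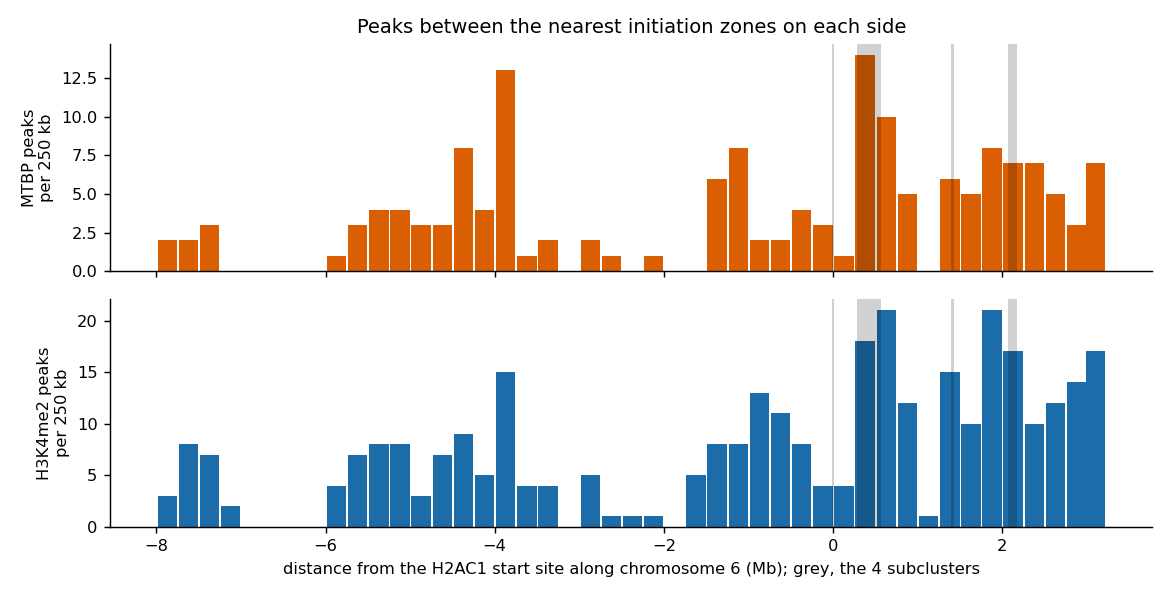
MTBP peaks (top) and H3K4me2 peaks (bottom) per 250 kb, counted by summit, across the 11.2-Mb span between the nearest initiation zones, against distance from the H2AC1 start site in Mb; grey bands are the 4 histone subclusters. The bin with most MTBP peaks, 14, overlaps the H1-1 to H4C8 subcluster, and the next bin to the right holds 10 MTBP and 21 H3K4me2 peaks.

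Other histone genes were set beside those of 6p22. The 14 replicative histone genes elsewhere, on chromosomes 1 and 12, had MTBP at 4 (28.6%), H3K4me2 at 10 (71.4%) and a zone at 0, against 42.7%, 63.8% and 20.9% of all protein-coding genes. The 4 were H2BC21, H2AC20 and H2AC21, which share 1 peak (score 255, 729 in WT and 618 in deltaC), and H4C16 (score 255, 864 in WT and 660.5 in deltaC). Of 11 replication-independent histone genes, 6 had MTBP (54.5%), 9 had H3K4me2 (81.8%) and 1, H3-3B, had the start in a zone (9.09%). MTBP scores there were 112 at H2AX to 360 at H2AZ2. Neither peak lay at any of 8 listed germ-cell histone genes. H2AC1 and H2BC1, which also had neither peak, were counted among the 54 genes of 6p22 and not on this list. The 54 were taken by name and position, and their use in S phase in these cells was not tested. Of 20 genes for histone gene transcription and mRNA processing, 20 had H3K4me2 (against 63.8%) and 6 had the start in a zone (against 20.9%). MTBP was at 13 (65.0%), against 42.7% of all protein-coding genes. Since all 20 had H3K4me2, the nearer background is the 66.9% with MTBP among protein-coding genes with H3K4me2 at a start. The share of 65.0% was near it. NPAT had an MTBP peak of score 524 and H3K4me2 of fold 17.9. SLBP, whose protein binds the histone mRNA stem-loop, had a peak of score 372. Scores at the 13 genes ran from 95 at ERI1 to 1022 at POU2F1, which encodes OCT1. The median score of the whole list was 190.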

How the data were processed

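MTBP and H3K4me2 CUT&RUN and EdU-seq libraries of DLD-1 cells were processed by the submitters with Trim Galore, Bowtie2, MACS2 and HOMER on hg38, per the submitters' processing notes. The labels and headers give no version, parameter, pooling or input for any list. Every MTBP peak has, from the authors, a score and 2 signals, 1 for WT and 1 for deltaC, all on scales that are not stated. In the deposited zone list the authors gave the average peak score. In the deposited H3K4me2 list the authors' columns are a score, a fold over background and the −log10 of p-value and q-value; the score and the fold were used. These values served for description, ranking and filtering within 1 list at a time. Replicates are not separated in any list, so the planned count model was not run and no test was made. No library was analysed on its own.

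Genes came from the RefSeq table of GRCh38.p14, and start sites from its promoter table, with both gene ends where it had no entry. A gene had a peak where one came within 1 kb of a start, lists overlapped by at least 1 bp, and peaks on Y were left out. Counts of histone genes with a peak are read against the share of all protein-coding genes under the same rule. Alternatives changed the window, the starts, the minimum score, the overlap, the pseudocount and the gap. Every histone gene was named, as were the other genes at MTBP peaks and at the nearest zones. From the comparison lists 1 gene was left out and is not reported here. The genes and lists were chosen with earlier results of these data known. The lookup was tested on simulated data, with Python 3.11.15, pandas 2.3.3, NumPy 2.4.6 and SciPy 1.17.1.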

Additional observations from a re-analysis of the deposited data

How the results depend on the processing

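Of 31 alternative settings over 13 results, 21 left the value within 1.5 times or within its interval and 10 moved it. Keeping peaks of at least the median score left 7 histone genes with MTBP and 23 with H3K4me2, 29 MTBP and 75 H3K4me2 peaks in the interval, 72.9% of MTBP peaks with H3K4me2 and 20.0% of H3K4me2 peaks with MTBP. Fewer peaks enter these counts by construction. The shares of histone genes with a peak then lay below those of all protein-coding genes (MTBP 13% against 24.3%, H3K4me2 42.6% against 56.7%), where with all peaks they lay above (48.1% against 42.7%, 79.6% against 63.8%). A cover of at least 50% of the H3K4me2 peak also gave 20.0%. Within 50 kb of a histone gene lay 35 MTBP and 56 H3K4me2 peaks. With zones of at least the median score the right distance was 2.18 Mb and the left one had no value. The start site alone gave MTBP at 21 and H3K4me2 at 38 histone genes, a 5-kb window 39 and 46, and both gene ends the main counts, and under these settings the shares stayed above those of all protein-coding genes. In the 5-kb window most genes added for MTBP lay near a peak already counted at another histone gene. Counting divergent pairs once and moving the 3-Mb windows were chosen after the data were seen, and the pairs gave MTBP at 24 and H3K4me2 at 36 of 45 units. H2BC12 and H2AC12, not paired for want of a strand, entered as separate units. The median ratios stayed at 0.53 to 0.56. No paired analysis was possible because the lists hold no values of single libraries, and leaving out a replicate was not run for the same reason. Depth is unknown, so a missing peak is not shown to be missing binding.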
